A study of Drosophila melanogaster with 4 samples.

Results

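Long stretches of the euchromatic arms without any called H3K27me2 region were examined in embryos of the wild-type fly strain Oregon-R (Drosophila melanogaster), 14 to 16 h old. A stretch is the sequence between consecutive intervals in the union of 3 deposited region lists, 1 for each of 2 ChIP samples (antibody Ab24684) and 1 that the authors made from the replicate set, called the combined list here. The series also holds 2 input samples, and all 4 samples share strain, genotype and age. Stretches were kept when they were at least 30 kb long and lay over 2 Mb from the proximal end of X, 2L, 2R, 3L or 3R. This gave 294 stretches, out of 15254 stretches of any length on these arms, of which 14178 lay in the same parts of the arms. They were chosen by the called regions themselves, so their number and length are descriptions, and a share of 2.07% of the 14178 follows from the length threshold. Embryos were used whole, so all cell types of the embryo are averaged.

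As background, H3K27me2 is placed by Polycomb repressive complex 2 and covers much of the silent and intergenic genome. The same enzyme adds the third methyl group at Polycomb target genes, where H3K27me3 takes the place of H3K27me2, since a single lysine holds only 1 of these states. Strongly transcribed genes are the other well-known places with little H3K27me2. Neither H3K27me3 nor transcription was measured in this series, so which of these states a stretch holds was not tested. The lists give no read counts, the depth is unknown, and unsequenced or repeated bases inside a stretch could not be told apart from bases without the mark. Such a stretch is therefore called uncalled and not unmarked.

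In the parts of the arms used, replicate 1 had 11493 regions over 29.9% of the sequence, replicate 2 had 10292 over 23.8%, and the combined list 14421 over 47.4%. The 294 stretches together spanned 14.2 Mb, which was 13.0% of the 109 Mb and 25.03% of all uncalled sequence there. The median stretch of any length was 1287 bp, and the median among the 294 was 40037 bp. Of the 294, 147 were shorter than 40 kb, 89 reached 50 kb and 11 reached 100 kb. The 11 longest held 1.32 Mb. No break separated the stretches from shorter ones at the threshold. The shortest that were kept measured 30037, 30085, 30087, 30149 and 30159 bp, and the longest that were left out measured 29923, 29875, 29771, 29716 and 29634 bp. Between 25 and 30 kb there were 105 stretches, and between 30 and 35 kb there were 75.

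**Figure D1:**
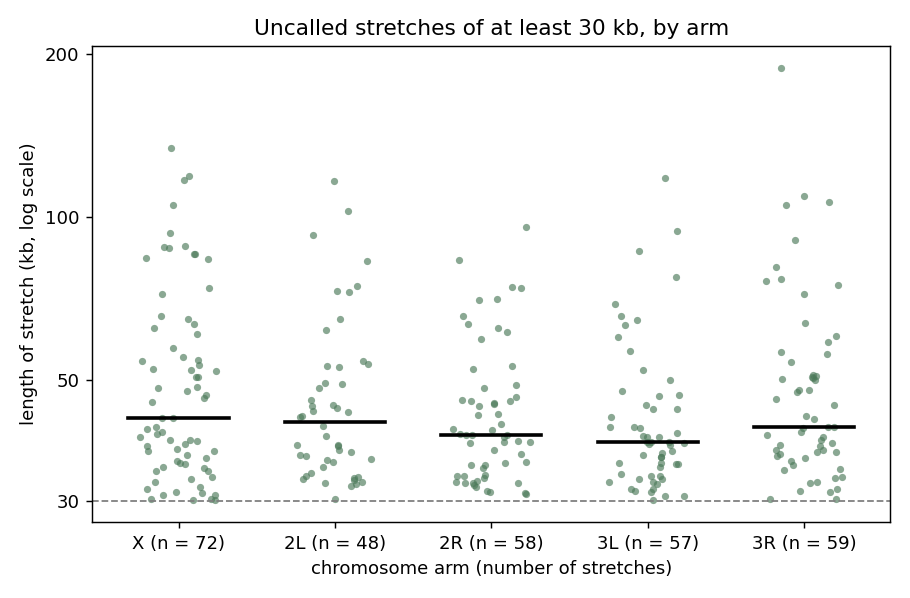
Length of each of the 294 uncalled stretches (kb, log scale) by chromosome arm, with 1 point per stretch, the median as a black line and the 30 kb threshold as a dashed line. The medians lie between 38443 bp on 3L and 42637 bp on X, and the longest stretch, 188589 bp, is on 3R.

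X held the most of these stretches, and more of its length was in them. On X there were 72, with 18.4% of its sequence, against 58 on 2R (13.6%), 59 on 3R (11.7%), 57 on 3L (11.2%) and 48 on 2L (10.9%). Per 10 Mb of sequence, X had 35.3 stretches and 2R had 30.3, whereas 2L had 22.8 and 3R also 22.8. Median lengths differed little, from 38443 bp on 3L to 42637 bp on X. X had 29 stretches of 50 kb or more, against 60 on the 4 autosomal arms together. X also had the lowest called cover of the arms, with 23.6% in replicate 1 and 19.4% in replicate 2, against 31.4% and 24.8% on the autosomal arms. Embryo sex is not labelled, and a lower copy number of X in males cannot be told apart from less mark without read counts. Arm 2R did not follow such an order, since it had the highest called cover (36.6% and 29.1%) and yet the second highest share in long stretches in the union. By the replicate lists alone, described next, 2R had the lowest share of the arms, with a mean of 21.5% ± 3.53 (SD, n = 2).

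Taken alone, each replicate list gave longer and more numerous stretches of at least 30 kb. Replicate 1 alone had 477, covering 22.3% of the sequence, and replicate 2 alone had 578, covering 28.1%. The mean of the replicates was 25.2% ± 4.14 (SD, n = 2). The combined list alone had 296 and 13.1%, nearly the values of the union. Every arm had a larger share in replicate 2 than in replicate 1. On X the share was 30.8% in replicate 1 and 36.0% in replicate 2, a mean of 33.4% ± 3.68 (SD, n = 2), and on the autosomal arms 20.3% and 26.3%, a mean of 23.3% ± 4.25. X was above every autosomal arm in each of the 3 lists, and the lower X value (30.8%) was above the highest autosomal value (28.4%, 2L in replicate 2). An exact two-sided sign-flip permutation over 2 replicates has a smallest p of 0.5, so no test over samples was run. No label ties the ChIP samples to separate collections of embryos, and their spread may be technical.

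**Figure D2:**
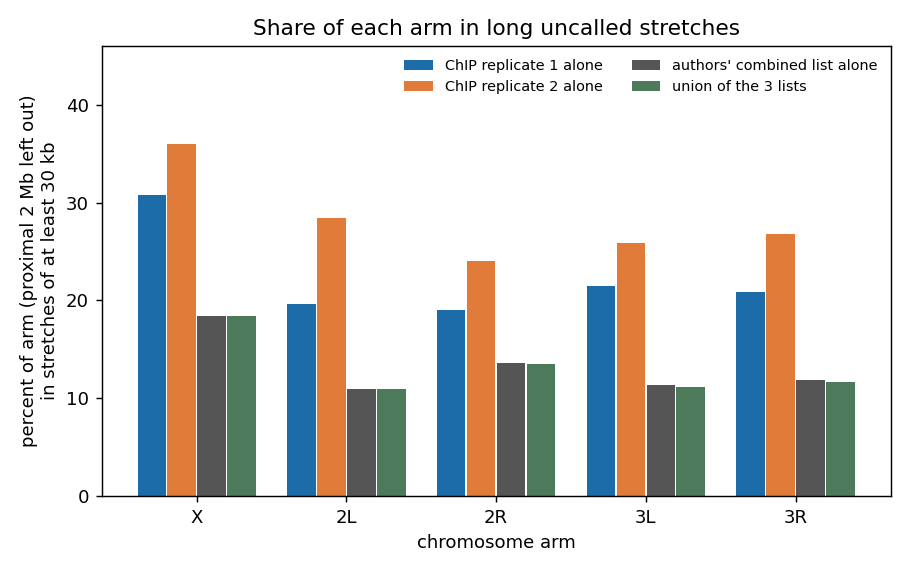
Percent of each arm, with the proximal 2 Mb left out, in stretches of at least 30 kb without a called region, for each replicate list alone, the combined list alone and the union of the 3 lists. Bars are single values with no error bars. X is highest in every list, from 18.4% in the union to 36.0% in replicate 2.

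The longest stretch lay on 3R from 12615545 to 12804133 and measured 188589 bp. The sequence around it free of regions measured 349306 bp in replicate 1, 214145 bp in replicate 2, and 188589 bp by the combined list. A second long stretch, 106503 bp from 12480751 to 12587253, preceded it, and replicate 1 had no region across both or between them. From general knowledge of the release 5 map, and not from the files, this part of 3R is the bithorax complex. Its genes Ubx, abd-A and Abd-B specify the identity of the posterior thoracic and the abdominal segments and are classical Polycomb targets. The RefSeq gene table used here is of release 6 and was read only for names and order, and it lists Ubx, abd-A and Abd-B in this order on 3R. Which gene lies in which stretch was not determined.

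Only 28291 bp separated these stretches, of which the combined list covered 9.09%, replicate 2 covered 4.86% and replicate 1 covered none. Replicate 2 had a single region there, 1376 bp from 12613953 to 12615328, whose score stood at percentile 27.9 of its list. The combined list had 2 regions there, of 1011 and 1561 bp. The narrower, from 12587254 to 12588264, had a score at percentile 99.9 of the list, and neither replicate had a region at that place. Regions of the replicate lists measured at least 1301 bp, so neither list could hold a region as narrow as this. The wider, from 12613984 to 12615544, stood at percentile 25.5 and overlapped the region of replicate 2. On the far side of the longest stretch, a combined region of 1671 bp at percentile 11.8 set the edge, and the first regions of the replicates began 25542 and 25340 bp beyond it. On the near side of the shorter stretch all 3 lists ended within 381 bp of each other. The outer borders of the pair were thus placed alike by the replicates, and the inner part was broken by narrow regions that replicate 1 did not have.

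Further long stretches lay on X and 3R. On X, 105333 bp from 4427689 to 4533021 were uncalled in the union, 105504 bp in replicate 1 and 105758 bp in replicate 2. The regions on both sides of it were among the strongest, with score percentiles of 98.9 and 94.7 in replicate 1, 99.4 and 99.7 in replicate 2, and the combined list gave 99.2 and 99.3. These ranks are over the whole list, and X regions scored higher than autosomal ones. Not all long stretches had such borders. For 117929 bp on 3L the percentiles were 9.13 and 42.1 in replicate 1, 11.7 and 60.4 in replicate 2, and 14.7 and 6.20 in the combined list. For 116641 bp on 2L they were 12.5 and 9.74, 74.5 and 37.5, and 20.7 and 20.1. Also on X, 119091 bp from 9557901 to 9676991 were uncalled, 124958 bp in replicate 1 and 119610 bp in replicate 2, since the first region of replicate 1 after it lay 5867 bp away. By the same background knowledge, this part of X holds btd and Sp1, neighbouring zinc-finger genes that act in head and leg development. On 3R, 109265 bp from 17234241 to 17343505 were uncalled, 111764 bp in replicate 1 and 112115 bp in replicate 2. Only 4411 bp set it apart from a further stretch of 60347 bp, for which the replicates gave 61071 and 60519 bp. This is the place of the NK homeobox cluster, which includes tin for the heart, bap for the visceral mesoderm, and lbl, lbe, C15 and slou. Replicates 1 and 2 each had a single region between these stretches, at percentiles 64.2 and 60.5.

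The other stretches over 100 kb lay on X, 2L, 3L and 3R. On X, 134039 bp from 16160843 to 16294881 were uncalled, 142770 bp in replicate 1 and 137535 bp in replicate 2. A further stretch on X, 117215 bp from 17630221 to 17747435, measured 138261 bp in replicate 1 and 117358 bp in replicate 2. On 3L, 117929 bp from 19808745 to 19926673 extended to 154760 bp in replicate 1 and 174485 bp in replicate 2. At its low-coordinate end the first region of replicate 1 lay 21 bp away and that of replicate 2 lay 19318 bp away. On 3R, 105059 bp from 11785825 to 11890883 were uncalled, with 110210 and 113267 bp in replicates 1 and 2. That place holds, as background, the GATA factor genes srp and pnr, which act in fat body, blood and dorsal patterning. On 2L, 116641 bp from 5373419 to 5490059 were uncalled, with 122211 bp in replicate 1 and 154389 bp in replicate 2. H15 and mid, a pair of T-box genes with roles in the heart and in ventral patterning, are known to lie there. Another stretch on 2L, 102422 bp from 10197813 to 10300234, measured 173677 bp in replicate 1 and 102750 bp in replicate 2. On 2R the longest stretch, 96043 bp from 2215913 to 2311955, measured 109979 bp in replicate 1 and 97022 bp in replicate 2.

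Some stretches lay close together, parted by called islands. How many would do so if placed at random was not worked out. Of the 294, 80 (27.2%) lay within 30 kb of another, in 33 groups of 2 to 6, whereas the median distance between neighbouring stretches on an arm was 188764 bp. The 47 islands between grouped stretches had a median length of 9524 bp, from 1037 to 28440 bp. In 31 islands both replicates had a region, in 5 only replicate 1, in 3 only replicate 2, and in 8 only the combined list. The smallest region was 1301 bp in the replicate lists and 1001 bp in the combined list. An island under 1301 bp could therefore hold no region of a replicate. Regions inside islands ranked near the middle of their lists, with median score percentiles of 44.9 in replicate 1 and 47.5 in replicate 2, and 41.2 for the combined list. Called cover of the islands was 31.9% in replicate 1 and 24.3% in replicate 2, beside 34.4% and 27.4% of all sequence outside the stretches. By the rule an island starts and ends with a called region of some list, so its cover is set in part by the choice.

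By summed length, the largest group lay on X from 16017845 to 16355908, with 4 stretches and 302671 bp of 338064 bp uncalled. The pair in the bithorax complex came next, with 295092 bp of 323383 bp. The third lay on 3R from 2539699 to 2852869 and had 6 stretches of 33047 to 56391 bp, with 250941 bp of 313171 bp uncalled. Its place on release 5 is, as background, at the Antennapedia complex, whose genes lab, pb, Dfd, Scr and Antp specify head and thoracic segments. Which of these genes lie inside the group was not determined. Of its 5 islands, 4 held a region of at least 1 replicate. The widest island, 28440 bp from 2576643 to 2605082, held 7 regions in replicate 1 and 5 in replicate 2, with 56.8% and 29.9% of it covered. The islands of 2751 and 3915 bp held 1 region in each replicate, which covered between 83.7% and 94.5% of them. An island of 25319 bp from 2771160 to 2796478 had 4 regions in the combined list, the widest 1495 bp, and none in a replicate, so that 135829 bp of replicate 1 and 136045 bp of replicate 2 ran without a region there.

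**Figure D3:**
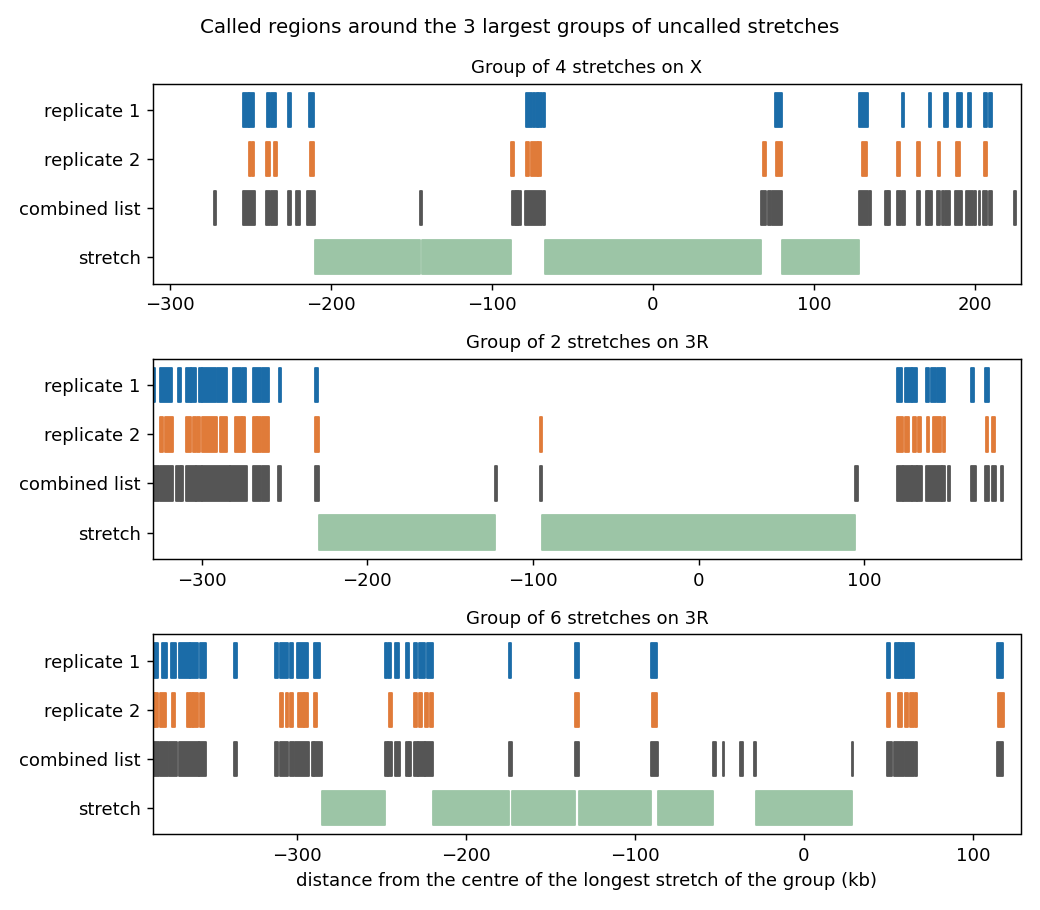
Called regions of replicate 1, replicate 2 and the combined list around the 3 groups with the largest summed length, and the uncalled stretches themselves, by distance in kb from the centre of the longest stretch of each group. Replicate 1 has no region between the 2 stretches of the middle panel, whereas several islands of the group of 6 hold regions in both replicates.

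Narrow islands also lay in the groups described here, which were not the next by summed length. Those next by that measure, on X (234028 bp) and 2L (219052 bp), had islands of 3471 and 22592 bp and of 1584 and 26859 bp. Of all 47 islands, 14 were under 3 kb. On 3L from 12565319 to 12767185, 3 stretches took up 197917 of 201867 bp, with islands of 1721 and 2229 bp. The first island held a region in the combined list alone, at percentile 41.2. The second held a region in every list, at percentiles 30.7 in replicate 1, 29.5 in replicate 2 and 81.9 of the combined list. This is, as background, the Iroquois complex of the homeobox genes ara, caup and mirr, which pattern the notum and eye. On 2R from 7337553 to 7532641, 3 stretches took up 176815 of 195089 bp, with islands of 1247 and 17027 bp. The island of 1247 bp, narrower than any region of a replicate list, stood at percentile 25.2 of the combined list and was absent from both replicates. This left 157516 bp of replicate 1 and 146025 bp of replicate 2 without a region. The island of 17027 bp held regions of both replicates. The homeobox genes inv and en, which mark posterior compartments, are known to lie in this part of 2R. Genes are given here only where their place is well known, the other stretches were not placed, and no count of stretches with or without such genes can be drawn from these examples.

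The next comparison asked how alike the replicates placed the edges of the stretches. The combined list set 503 of the 588 edges. Beyond the edge, the first region of replicate 1 lay at a median of 357 bp and that of replicate 2 at a median of 1923 bp, and 57.6% and 42.8% of edges had a region of the replicate within 1 kb. At 197 of the 587 edges that both replicates could be scored for (33.6%), both replicates had a region within 1 kb of the edge. At 120 (20.4%) neither had a region within 5 kb. Replicate 1, which had more regions, was the nearer at 396 edges and replicate 2 at 190. The positions of the replicates differed by a median of 815 bp, and by 1 kb or less at 298 edges (50.8%). The stretch left unscored lay at the end of 2R, where no replicate had a region beyond it.

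Stretches with close edges on both sides were few. Of 293 stretches, 36 had both replicates within 1 kb at both edges, 124 at a single edge and 133 at neither. In 86 (29.4%) the sequence free of regions exceeded the stretch by 10% or less in each replicate. The share of close edges did not follow length, with 32.3% for stretches of 30 to 40 kb, 31.9% for 40 to 50 kb, 36.8% for 50 to 75 kb and 35.5% for 75 kb and longer. It was 25.7% on X and between 32.5% and 38.6% on the autosomal arms. In replicate 1 the free sequence had a median of 1.08 times the length of the stretch, and in replicate 2 of 1.25 times. It exceeded 1.5 times in 45 stretches in replicate 1 and in 83 in replicate 2.

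**Figure D4:**
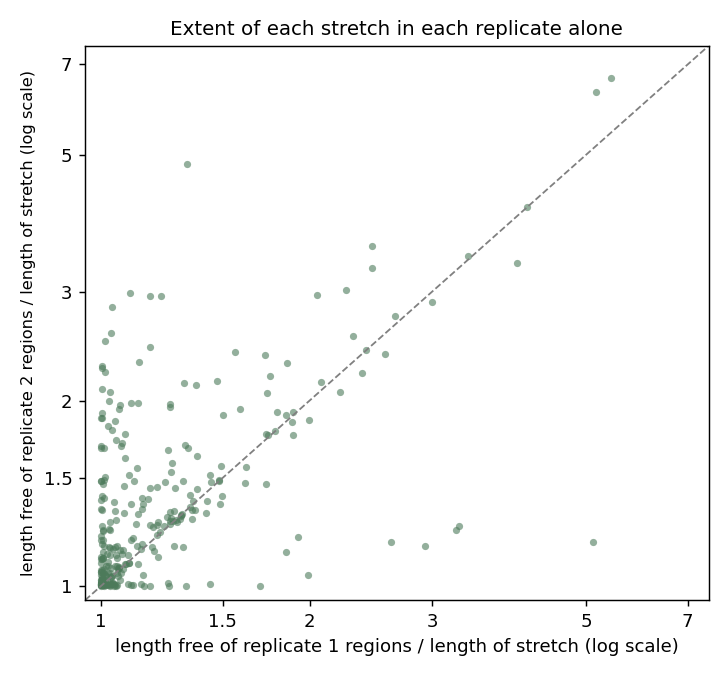
Sequence free of regions in replicate 1 (horizontal) and replicate 2 (vertical) around each stretch, as a multiple of its length in the union, both on log scales, with 1 point per stretch and the line of equal values dashed. Most points lie near 1 in replicate 1, with a median of 1.08, and more points lie above the line than below it, with a median of 1.25 in replicate 2.

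The replicates differed most at 3 places. The summed difference of both edges was 216104 bp for the shorter stretch of the bithorax pair and 135161 bp for the longer, through the single region of replicate 2 between them. It was 181081 bp for a stretch of 43699 bp on 2L from 10301819 to 10345517, which had 173677 bp free in replicate 1 and 145672 bp in replicate 2. There replicate 1 had no region for 104562 bp before the stretch, and replicate 2 had none for 101954 bp after it. The differences were smallest for 43817 bp on 2L from 6805827 to 6849643 (47 bp), for 30549 bp on 3L from 14740225 to 14770773 (106 bp) and for 45305 bp on 2R from 13401717 to 13447021 (107 bp).

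Regions that bordered the stretches were shared between the replicates about as often as other regions of their lists. The first regions beyond the edges numbered 544 in replicate 1, and 67.5% of them overlapped a region of replicate 2 (95% Clopper-Pearson interval 63.3% to 71.4%), against 70.5% of all replicate 1 regions in the same parts of the arms. In replicate 2 the share was 84.7% of 537 (81.4% to 87.7%), against 84% of all. In the combined list, 44.9% of 568 overlapped both replicates and 30.6% overlapped neither, against 44% and 28.8% of all. These intervals treat regions as independent, which neighbours are not. Median widths were 2197.5 bp at the edges and 2143 bp elsewhere in replicate 1, and 2050 and 2019 bp in replicate 2. The combined list went the other way, with 2209 bp at the edges and 2445 bp elsewhere.

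Scores, whose scale the headers do not name, were ranked within each list. Regions at the edges had a median percentile of 55.9 in replicate 1 and 56.5 in replicate 2, where 50 is the middle of a list. X regions scored higher than autosomal ones and X held more of the stretches. When each arm was ranked on its own, the medians were 54.8 and 52.7. By arm they ran from 42.0 on 2R to 62.4 on 3R in replicate 1 and from 45.1 on 2L to 61.2 on 3R in replicate 2. Edge regions in the top width quartile of their list ranked higher than other regions of that quartile, at percentile 85.0 against 78.9 in replicate 1 and 86.7 against 76.3 in replicate 2. Those in the lowest width quartile ranked lower, at 15.5 against 19.9 and at 19.8 against 24.0, and were shared with the other replicate in fewer cases, at 30.1% against 43.6% in replicate 1 and 59.0% against 67.8% in replicate 2. In the second quartile the replicates went opposite ways, with 53.8% against 61.1% and 83.3% against 78.3% shared. In the third quartile edge regions were shared in more cases, 86.6% against 81.7% and 95.8% against 91.9%. In the top quartile 95.5% against 96.5% and 97.1% against 97.9% were shared. None of these differences was tested. The comparisons by width quartile used ranks over the whole list and not within each arm. By such ranks, edge regions on X had medians of 73.7 and 77.3 in replicates 1 and 2, against 50.4 and 47.5 on the autosomal arms. Regions of 10 kb or more in the combined list made up 5.99% of its edge regions and 4.90% of all its regions.

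Pooled over the arms, called cover beside the stretches was slightly below that elsewhere in every list, once the edge itself was left out. In the first 5 kb, where a region stands at each edge by the rule, 44.4% of the sequence was called in replicate 1 and 33.5% in replicate 2. From 5 to 50 kb the cover was 32.7% in replicate 1, 25.5% in replicate 2 and 49.7% by the combined list, whereas all sequence outside the stretches had 34.4%, 27.4% and 54.5%. The differences were -1.69 and -1.88 percentage points in the replicates, a mean of -1.78 ± 0.14 (SD, n = 2), and -4.85 points for the combined list. With the first 5 kb included, the whole 50 kb had 34.2% and 26.5% in the replicates, which is -0.27 and -0.91 points. Over 200 kb from any stretch the cover was 34.8% and 28.0%. For single stretches, with the bases of other stretches left out, the median cover of the 50 kb on both sides was 32.9% in replicate 1, 25.3% in replicate 2 and 51.3% by the combined list. It was above the value of all sequence outside the stretches for 47.6%, 40.5% and 43.2% of the 294. These values are single numbers for 2 libraries and were not tested. They pool the arms, and the value of all sequence outside the stretches keeps the first 5 kb. X, with the most stretches, had 29.0% and 23.8% called outside them in the replicates, against 35.6% and 28.2% on the autosomal arms. Cover from 5 to 50 kb was not taken by arm, so a difference between arms cannot be told apart from one beside the stretches. By arm, with the first 5 kb included, the replicates and the combined list differed. In both replicates the cover within 50 kb was higher than farther away on X, 2L and 3R, with 30.7% against 28.1% on X in replicate 1 and 24.6% against 23.4% in replicate 2. On 2R and 3L it was lower in both, with 40.1% against 43.3% on 2R in replicate 1 and 31.2% against 34.6% in replicate 2. The combined list, which set most of the edges, was lower within 50 kb on all 5 arms, from 49.5% against 49.7% on X to 48.6% against 55.7% on 3L.

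**Figure D5:**
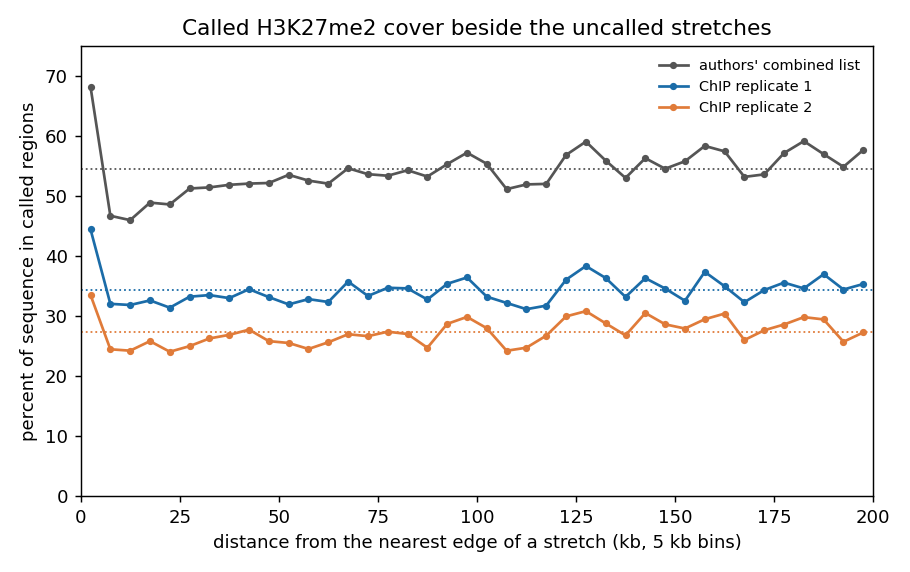
Percent of sequence in called regions by distance from the nearest edge of a stretch, in bins of 5 kb up to 200 kb, for each replicate and the combined list, with the value over all sequence outside the stretches dotted. After the first bin the lines drop below their dotted lines, to 46.7% from 5 to 10 kb in the combined list, and return to them farther out, and replicate 1 is above replicate 2 throughout.

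Along the arms the stretches were spread widely but unevenly. Of 107 full windows of 1 Mb, 98 held at least some sequence of a stretch, and the median over all 107 windows was 11.4% of the window. The highest was 3R from 12 to 13 Mb, which includes the bithorax pair, with 46.3%. There, 21.3% of the window was called in replicate 1 and 17.2% in replicate 2, and outside the stretches 39.7% and 32.1%, above the 34.4% and 27.4% of all such sequence. In the window on X from 8 to 9 Mb, with 31.9% in stretches, the cover outside them was low as well, at 20.6% and 17.5%. Over X as a whole it was 29.0% and 23.8%. The window on X from 17 to 18 Mb, with 34.1% in stretches, had 33.5% and 27.4% outside them. The longest distances between neighbouring stretches were 2864699 bp on 3R from 13534398 to 16399096 and 2144483 bp on 3R from 20928968 to 23073450.

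The combined list shaped the set more than either replicate. Without it, 411 stretches of at least 30 kb were free of regions of both replicates, and 284 of these held a stretch of the final set. By the rule a stretch of the union lies in sequence free of both replicates, so the 284 follows from the choice. In 142 of the 411 (34.5%) the combined list had no region inside either. Inside the 411, the combined list had 601 regions, with a median width of 1365 bp against 2435 bp over that list and a median score percentile of 26.4. These 601 regions were picked for overlapping neither replicate, whereas 44% of the combined list overlapped both. Their lower width and score may come from that choice, and they were not set against other regions that overlapped neither. Regions of the combined list thus shortened or broke stretches that both replicates left free.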

How the data were processed

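The members and all lists were chosen with earlier results of these data known. Per the file headers, positions are on FlyBase release 5, and each deposited region carries the authors' score, on a scale not stated. The submitters' processing notes name Bowtie 0.12.7. Neither the caller, nor its threshold, nor the way the replicates were combined is given in the sources used here. The smallest region was 1301 bp in the replicate lists and 1001 bp in the combined list. Regions of the 3 lists were merged, touching ones included, and lengths of arms came from the headers. Flanks reached 50 kb, edges were close within 1 kb, and regions were shared by 1 bp of overlap. Inputs have no list here, so no background was measured in them. Named stretches followed a rule on length, edges and groups, with exceptions. The stretches of 60347 bp on 3R and 102422 bp on 2L fell outside it. So did the groups on 3L from 12565319 and on 2R from 7337553. Both groups and the stretch of 60347 bp lie at places of well-known genes, so the genes named are no neutral sample. Genes were named from general knowledge, since no release 5 annotation was given, and the planned gene counts were not run. Alternatives are listed at the end. Work was done in Python 3.11.15 with pandas 2.3.3, numpy 2.4.6, matplotlib 3.10.9 and scipy 1.17.1, and the search for stretches was tested on simulated data.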

Additional observations from a re-analysis of the deposited data

How the results depend on the processing

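The number of stretches (294), their share of the arms (13.0%) and their median length (40037 bp) moved with the length threshold by construction, to 584, 19.4% and 30086 bp at 20 kb and to 89, 5.96% and 65681 bp at 50 kb. When only the higher-scoring regions of each list (at least its median score) were used, they were 563, 27.5% and 44802 bp. Without the combined list the share was 19.1% and the median 42583 bp. X minus autosomal arms, 6.64 percentage points, was taken again only for other length thresholds and other choices of lists. It was positive in each, with 7.90 points at 20 kb, 5.73 at 50 kb and 9.61 without the combined list. It was not taken for the higher-scoring regions or for other proximal limits. Leaving out the list of ChIP replicate 1 or 2 gave 6.64 or 6.54 points and 294 or 296 stretches, but the combined list was made from both replicates and stayed, so this says nothing about stability; the flank cover was 26.5% or 34.2%. At 50% reciprocal overlap, 58.5% of edge regions were shared, against 76.1% as the mean of the replicates. Their median score percentile, 56.2, was 55.2 at 20 kb, 58.3 at 50 kb, 57.4 for regions within 5 kb of the edge and, chosen after seeing the data, 53.7 with scores ranked within each arm. Of the stretches, 46 lay within 10 kb of another, against 80 within 30 kb. No paired analysis was possible because no list of the inputs was used. Depth is unknown and limits what can be said of uncalled sequence.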
